A study of Mus musculus with 6 samples.

Results

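A set of 9 genes with roles in keeping T cells quiescent were followed by name in naive CD4 T cells from mice labelled as conditional knockouts of the cap methyltransferase gene Cmtr1 and from controls. They are the BTG/TOB family members Btg1, Btg2, Btg3, Tob1 and Tob2, and 4 genes from outside that family, Klf6, Slfn2, Tsc22d3 and Vsir. The 9 genes were found by matching the Ensembl identifiers of the count files, without version numbers, to GENCODE vM21 symbols. They make up 9 of the 46983 genes in the files. All 9 were among the 12748 genes that passed the filter on low counts.

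RNA-seq libraries, with ribosomal RNA removed, were made from CD4+ TCRb+ CD62L+ CD44- T cells sorted from lymph nodes of male mice. The 2 control libraries came from mice of genotype Cmtr1 fl/fl CD4cre -, and the 4 libraries labelled Cmtr1 cKO from mice of genotype Cmtr1 fl/fl CD4cre +. Both groups therefore carry the floxed allele, and a group with Cre but without the floxed allele was not analysed here. CD4-Cre is a transgene driven by Cd4 regulatory elements that recombines floxed alleles from the double-positive thymocyte stage, so CD8 T cells are also targeted. Neither the age of the mice nor whether each library came from a separate mouse is stated in the labels, so the p-values reflect library-to-library spread alone, which may be technical.

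Quiescence is the resting state in which naive T cells survive for long periods with a small cytoplasm, low translation and little cell division. BTG and TOB proteins share an N-terminal domain that binds the CNOT7 and CNOT8 deadenylases of the CCR4-NOT complex, and through it they shorten poly(A) tails and lower mRNA levels. BTG1 and BTG2 are known to hold T cells quiescent in this way. CMTR1 adds a methyl group beside the mRNA cap, on the ribose of the nucleotide at which transcription began.

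CMTR1 acts at the 5′ end, so the first 10 bases of each gene from its RefSeq start (GRCm38.p6) are shown, 5′ to 3′, with the first transcribed base in capitals. A RefSeq window was found for 9 of the 9 genes, with 2 starts for Btg3 and 3 for Tsc22d3. The starts are annotated positions and were not measured in these libraries. For some genes the GENCODE vM21 gene model given below begins elsewhere. RefSeq has the start of Btg1 at 96617001, of Tob2 at 81858326 and of Btg2 at 134079155. The GENCODE models begin at 96617006, 81858796 and 134079120. First bases and motif positions in this section hold for the RefSeq starts only.
Btg1: Agctcttcgc
Btg2: Gagtggtatg
Btg3 start 1: Cgcttcgtgc
Btg3 start 2: Cttccgggcc
Tob1: Ctggcccggc
Tob2: Agcagattca
Klf6: Gaggctggca
Slfn2: Gctttaatgc
Tsc22d3 start 1: Gggatccgcc
Tsc22d3 start 2: Tcactcccct
Tsc22d3 start 3: Gagagtatct
Vsir: Gggggcgctg
Among the 11186 windows of tested genes, 47.1% start with G, 28.1% with A, 14.8% with C and 9.94% with T. Of the 3 genes that fell (below), Btg1 and Tob2 have an A at the RefSeq start and Klf6 a G. A 5′ terminal oligopyrimidine tract, searched as a C followed by 4 pyrimidines, is the feature of mRNAs of the translation machinery. It was found at 1 of the 12 annotated starts, the second start of Btg3, and at 2.42% of the windows of tested genes.

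The 250 bases before the start and the first 10 transcribed bases are printed for Btg1, Tob2 and Klf6, the 3 genes that fell, and for Btg2, the closest relative of Btg1, which did not pass the test. Capitals mark matches, on either strand, to the TATA box TATAAA, the CCAAT box CCAAT, the GC box GGGCGG, the cyclic AMP response element TGACGTCA, its half-site TGACG, which is also part of the full element, and the E-box CACGTG. The windows are chr10:96616751-96617010 (plus strand) for Btg1, chr15:81858317-81858576 (minus strand) for Tob2, chr13:5861239-5861498 (plus strand) for Klf6 and chr1:134079146-134079405 (minus strand) for Btg2, all GRCm38.p6.
Btg1: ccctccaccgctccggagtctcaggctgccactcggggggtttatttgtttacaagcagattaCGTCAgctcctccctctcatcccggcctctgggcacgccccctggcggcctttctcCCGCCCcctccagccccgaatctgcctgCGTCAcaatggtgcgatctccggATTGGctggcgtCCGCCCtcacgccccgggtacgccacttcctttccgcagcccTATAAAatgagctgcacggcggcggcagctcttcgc
Tob2: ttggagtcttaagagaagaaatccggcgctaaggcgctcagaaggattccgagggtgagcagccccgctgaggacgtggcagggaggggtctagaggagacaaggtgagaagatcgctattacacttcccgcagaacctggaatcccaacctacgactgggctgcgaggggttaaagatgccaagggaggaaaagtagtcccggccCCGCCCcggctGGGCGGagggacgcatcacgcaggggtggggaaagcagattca
Klf6: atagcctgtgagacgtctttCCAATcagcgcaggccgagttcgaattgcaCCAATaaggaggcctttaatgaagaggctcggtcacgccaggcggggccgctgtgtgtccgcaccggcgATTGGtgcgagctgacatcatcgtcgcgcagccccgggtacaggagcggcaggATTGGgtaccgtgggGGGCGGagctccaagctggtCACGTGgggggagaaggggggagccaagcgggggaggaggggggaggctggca
Btg2: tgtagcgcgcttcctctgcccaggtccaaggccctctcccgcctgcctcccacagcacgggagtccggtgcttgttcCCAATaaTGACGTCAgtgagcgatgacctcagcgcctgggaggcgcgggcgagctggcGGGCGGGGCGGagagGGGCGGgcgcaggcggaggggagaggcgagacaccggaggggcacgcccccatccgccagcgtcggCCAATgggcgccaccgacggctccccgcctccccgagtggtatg
The Btg1 window holds a TATA box that begins at position -26 from the start, a motif in 13.6% of all 32851 RefSeq windows, which reach a little further past the start than those printed. Tob1 was the other gene with a match, at position -47. Tob2 differs from its paralog in that its window has GC boxes (in 35.7% of all windows) and none of the other motifs. Klf6 has 4 CCAAT boxes, a GC box and an E-box, which 37.4%, 35.7% and 7.15% of windows hold. Only the Btg2 window, among the 9 genes, contains the full cyclic AMP response element, which is in 1.79% of windows, and half-site matches were found in 4 of the 9 genes against 20.8% of windows. An interferon-stimulated response element (in 3.44% of windows) and a palindromic glucocorticoid response element (0.00913%), each searched by its consensus letters, had no match in the windows of the 9 genes. A match describes letters and is not evidence of a bound site.

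The libraries held 9513874 to 11949838 gene counts. The targeted gene Cmtr1 had 11.19 and 11.36 CPM (counts scaled to library size with TMM factors) in control 1 and 2, against 16.01, 19.77, 14.6 and 7.569 CPM in Cmtr1 cKO 1 to 4. Cmtr1 did not pass the test in the fit to all 6 libraries. It passed in 2 of 14 alternative fits, both times as higher in Cmtr1 cKO. These were the fit without Cmtr1 cKO 4 (0.58 ± 0.15, SE, edgeR adjusted p = 0.0081) and that with a replicate block (0.66, adjusted p = 0.000246). With the non-exonic share, defined below, as a covariate it had -0.65 (adjusted p = 0.106). Since the deleted part is not stated in the labels, the Cmtr1 count does not check the labels. In Cmtr1 cKO 3, 4.77% of gene counts fell on the ribosomal RNA gene CT010467.1, against at most 0.0284% elsewhere. The non-exonic share means unique reads that lay in no annotated exon on the counted strand. It therefore also holds reads on the strand opposite to exons. Over all genes that strand held 15.2% of counts in Cmtr1 cKO 3, against 4.22% to 5.07% in the other libraries. The share came to 37.23% and 33.96% in control 1 and 2, 52.34%, 51.59% and 46.67% in Cmtr1 cKO 1, 2 and 3, and 38.02% in Cmtr1 cKO 4. An exact two-sided permutation test gave p = 0.133, with 0.0667 the smallest p that 15 splits allow. Cell type markers showed T cells in every library, with Cd4 at 755.4 to 864.1 CPM. Summed marker levels in control and Cmtr1 cKO libraries were 23.6 to 28.7 and 17 to 21.3 CPM for CD8 T cells, 34.5 to 46.1 and 23.1 to 46 for B cells, 25 to 43.5 and 22.5 to 27.4 for myeloid cells, 7.34 to 10.4 and 4.34 to 6.28 for NK cells, 152 to 203 and 169.3 to 220.2 for regulatory T cells, and 189.9 to 199.8 and 129.2 to 178.1 for effector and memory T cells. Erythroid markers summed to 2.01 to 3.88 and 0.635 to 2.78 CPM, stromal markers to 308.9 to 320.1 and 319.5 to 340.3 CPM, nearly all from Pecam1, and thymocyte markers to 38.7 to 42.9 and 41.6 to 49.3 CPM, while Rag2, Ptcra and Pdpn had no counts. The part of these other cells in the results below was not tested.

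Of the 9 genes, 3 were lower in the libraries labelled Cmtr1 cKO, 0 were higher and 6 did not pass (edgeR's quasi-likelihood test, Benjamini-Hochberg adjusted p under 0.05 over all 12748 genes). Over all genes tested, 11.4% were called, 6.77% lower and 4.66% higher. Fitted log2 fold changes, Cmtr1 cKO over control, were below 0 for 9 of the 9 genes, from -0.48 to -0.04, with a median of -0.25 against 0 over all genes tested. On library totals alone, which move the median of all genes to 0.127, 7 of the 9 were below 0 and Btg2 and Slfn2 above it. At an unadjusted p under 0.05, 4 were lower and 0 higher, and DESeq2 called 2 lower and 0 higher. Over all genes, DESeq2 called 1400 of 12373. The share of all genes with an unadjusted p under 0.05 is not given here. Unadjusted counts, for these genes and for the lists below, therefore do not show whether a list differs from other genes. Because the libraries come from sorted bulk cells, fewer cells that express a gene and less RNA per cell cannot be told apart.

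**Figure D1:**
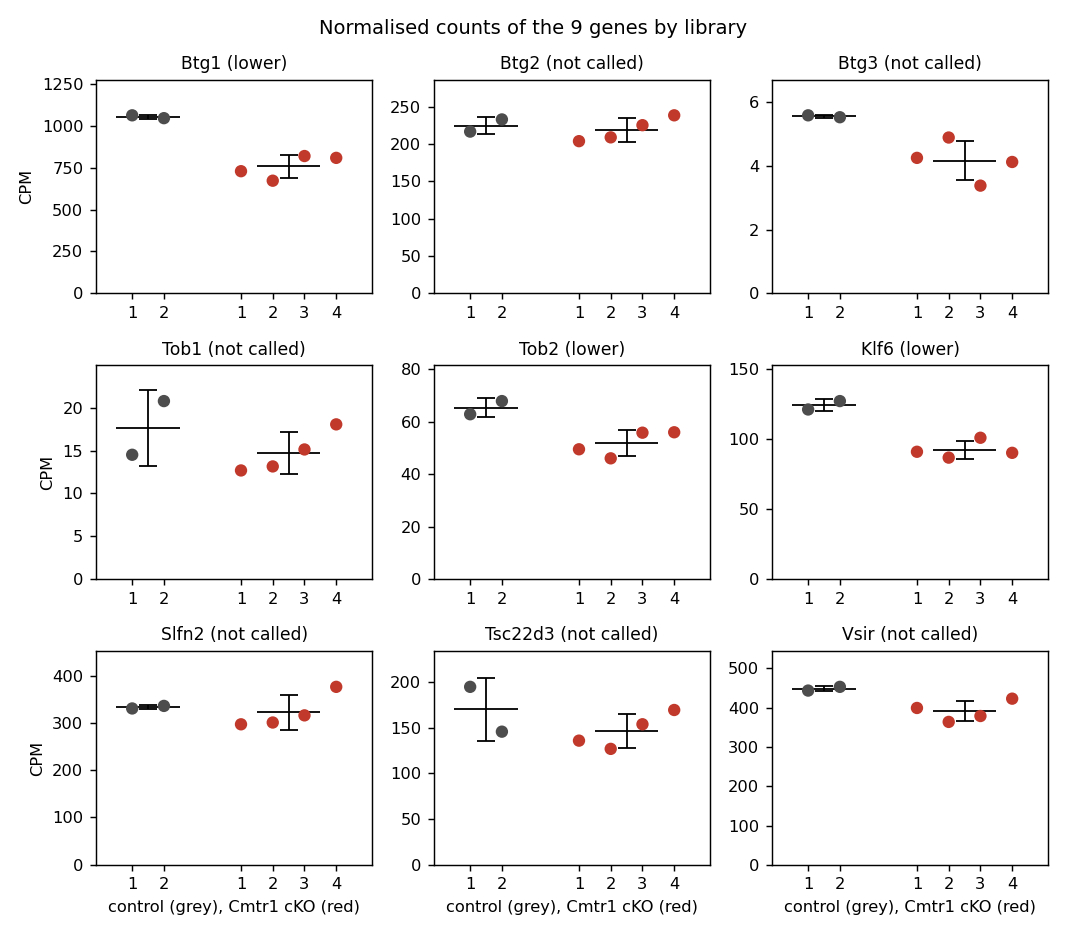
CPM of each of the 9 genes (vertical axes, from 0) in control libraries 1 and 2 (grey) and Cmtr1 cKO libraries 1 to 4 (red), with the group mean and SD in black and the call in each panel title. Control and Cmtr1 cKO libraries do not overlap for Btg1, Btg3, Tob2, Klf6 and Vsir, and only Btg1, Tob2 and Klf6 passed the test. The share of all genes tested without overlap is not given here. Absence of overlap, in this figure and in the text, therefore only describes the values of each gene.

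Btg1 (ENSMUSG00000036478.8, chromosome 10, 96617006 to 96622809, GRCm38) encodes an antiproliferative member of the family, and it had the lowest log2 fold change of the 9 genes. It measured 1065 and 1048 CPM in control 1 and 2, against 730.6, 673.7, 821.4 and 810.4 CPM in the libraries Cmtr1 cKO 1 to 4. Every Cmtr1 cKO library lay below both controls, and Cmtr1 cKO 2 was lowest. The mean went from 1057 ± 11.6 (SD, n = 2) to 759 ± 69.8 CPM (SD, n = 4), which is 0.718 times the control mean, or -0.48 ± 0.10 (SE) as log2 fold change (edgeR adjusted p = 0.0124, Benjamini-Hochberg). These values rest on 7428 to 12180 reads per library. The X-linked genes Btg1-ps1 and Btg1-ps2, whose names mark them as copies of Btg1, had 0 to 1 counts, and reads that map equally well to more than one place are in no gene's count.

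Btg2 (ENSMUSG00000020423.6, chromosome 1, 134075170 to 134079120), the paralog of Btg1 that is induced by p53 and by mitogens, measured 216.5 and 232.8 CPM in control 1 and 2, against 203.7, 208.8, 225.1 and 238.3 CPM in the libraries Cmtr1 cKO 1 to 4. The groups overlapped, and on the log2 scale the difference was -0.04 ± 0.08 (SE; edgeR adjusted p = 0.789). Per kilobase of exon, which allows genes to be compared, the ratio of Btg1 to Btg2 was 2.56 and 2.34 in the controls and 1.87, 1.68, 1.90 and 1.77 in Cmtr1 cKO 1 to 4. This ratio does not depend on how libraries are scaled, and the 4 Cmtr1 cKO libraries lay below both controls. The exact two-sided permutation test gave p = 0.0667, the smallest this design allows (adjusted p = 0.0834 over the 5 such measures computed). These measures, given here and below, were not among the planned comparisons. All but the ratio of Tob2 to Tob1 contain Btg1, so they are not independent of its lower CPM.

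Btg3 (ENSMUSG00000022863.15, chromosome 16, 78332637 to 78377192), a family member also known as ANA, was the scarcest of the genes. It measured 5.596 and 5.536 CPM in control 1 and 2, against 4.258, 4.898, 3.385 and 4.129 CPM in the libraries Cmtr1 cKO 1 to 4. The groups did not overlap, but with 32 to 64 reads per library the log2 fold change of -0.41 ± 0.21 (SE) did not pass (edgeR adjusted p = 0.206). Of its exon bases, 17.3% lie opposite exons of Cxadr, which the stranded counts separate.

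The TOB genes encode longer relatives whose C-terminal part also binds the poly(A)-binding protein PABPC1. Tob1 (ENSMUSG00000037573.5, chromosome 11, 94211454 to 94215495), a known brake on T cell proliferation, measured 14.51 and 20.78 CPM in control 1 and 2, against 12.68, 13.15, 15.13 and 18.06 CPM in the libraries Cmtr1 cKO 1 to 4. Control 1 lay below Cmtr1 cKO 3 and 4, so the groups overlapped, and on the log2 scale the difference was -0.25 ± 0.18 (SE; edgeR adjusted p = 0.354). Tob2 (ENSMUSG00000048546.8, chromosome 15, 81848272 to 81858796) measured 62.78 and 67.79 CPM in control 1 and 2, against 49.43, 45.98, 55.75 and 55.91 CPM in the libraries Cmtr1 cKO 1 to 4. Here the groups did not overlap. Tob2 fell to 0.793 times the control mean, 65.28 ± 3.54 to 51.77 ± 4.90 CPM (SD), or -0.33 ± 0.09 (SE) as log2 fold change (edgeR adjusted p = 0.0424). The ratio of Tob2 to Tob1 per kilobase was 1.49 and 1.12 in the controls and 1.34, 1.20, 1.27 and 1.06 in Cmtr1 cKO 1 to 4, with overlapping groups (exact permutation p = 0.533, adjusted p = 0.533).

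Summed over the family, BTG/TOB levels per kilobase were 298 and 304 CPM per kb in the controls and 227, 218, 254 and 258 CPM per kb in Cmtr1 cKO 1 to 4. Btg1 supplied 67.8% and 65.3% of this sum in the controls and 61.1%, 58.7%, 61.4% and 59.6% in Cmtr1 cKO 1 to 4. For both measures the groups did not overlap, with an exact permutation p of 0.0667, the smallest possible (adjusted p = 0.0834).

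Klf6 (ENSMUSG00000000078.7, chromosome 13, 5861482 to 5870394) encodes a zinc finger transcription factor of the Krüppel-like family. It measured 121.1 and 127.1 CPM in control 1 and 2, against 90.9, 86.71, 100.9 and 90.14 CPM in the libraries Cmtr1 cKO 1 to 4. Every Cmtr1 cKO library lay below both controls. Klf6 fell to 0.742 times the control mean, 124.1 ± 4.26 to 92.17 ± 6.12 CPM (SD), or -0.43 ± 0.08 (SE) as log2 fold change (edgeR adjusted p = 0.00619).

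Among 9 tested genes of the rest of the KLF family, 1 was lower and 0 higher by edgeR (2 and 0 at an unadjusted p under 0.05, 1 and 0 by DESeq2), with a median log2 fold change of 0.02. The gene that fell was Klf13, from 540.6 ± 2.31 to 423.3 ± 34.5 CPM (SD), or -0.35 ± 0.08 (SE) as log2 fold change (edgeR adjusted p = 0.0239). Its call ended without any of Cmtr1 cKO 1, 2 or 3 (adjusted p = 0.0593, 0.0662 and 0.0883), without control 1 or 2 (0.151 and 0.195) and on library totals (-0.23, adjusted p = 0.077). In the fits without a library that ended it, the log2 fold change was -0.35 to -0.32, whereas with the non-exonic share as a covariate it was -0.17 ± 0.06 (SE, adjusted p = 0.135). Klf2, which holds naive T cells quiescent and keeps them recirculating, had 312.3 ± 43.0 CPM (SD) in the controls and 306 ± 44.9 CPM (SD) in Cmtr1 cKO, or -0.03 ± 0.13 (SE) as log2 fold change (edgeR adjusted p = 0.896) that turned to 0.10 on library totals. Klf5 had no counts in any library, and Klf1, Klf4 and Klf12 were below the filter.

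Slfn2 (ENSMUSG00000072620.3, chromosome 11, 83065112 to 83070678) encodes a Schlafen protein whose loss in mice leaves T cells unable to stay quiescent. It measured 330.5 and 335.9 CPM in control 1 and 2, against 297, 300.8, 315.9 and 376.2 CPM in the libraries Cmtr1 cKO 1 to 4. Cmtr1 cKO 4 was above both controls and the other 3 below, and on the log2 scale the difference was -0.05 ± 0.10 (SE; edgeR adjusted p = 0.771). Set against Btg1, the other gene at its level per kilobase, the ratio of Btg1 to Slfn2 went from 1.02 and 0.984 in the controls to 0.776, 0.706, 0.820 and 0.679 in Cmtr1 cKO 1 to 4 (exact permutation p = 0.0667, the smallest possible, adjusted p = 0.0834). Of 6 other Schlafen genes tested, 1 was higher and 0 lower by edgeR, with a median of 0.17 (2 and 1 at an unadjusted p under 0.05, 1 and 0 by DESeq2). Slfn3 rose from 8.344 ± 0.812 to 14.27 ± 1.96 CPM (SD), by 0.77 ± 0.16 (SE, edgeR adjusted p = 0.015), and its call ended with the non-exonic share as a covariate (0.44, adjusted p = 0.215) or without control 1 or 2 (0.0878 and 0.165). Slfn genes lie in a cluster of close relatives, so uniquely mapped counts are uncertain for them.

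Tsc22d3 (ENSMUSG00000031431.13, chromosome X, 140539528 to 140600659) encodes GILZ, a leucine zipper protein that glucocorticoids induce and that restrains NF-kB and AP-1. It measured 194.5 and 145.5 CPM in control 1 and 2, against 135.7, 126.7, 153.6 and 169.2 CPM in the libraries Cmtr1 cKO 1 to 4. The groups overlapped, since control 2 was below Cmtr1 cKO 3 and 4, and on the log2 scale the difference was -0.22 ± 0.13 (SE; edgeR adjusted p = 0.282). Among 11 tested genes of the glucocorticoid response, 1 was lower and 0 higher by edgeR (3 and 0 at an unadjusted p under 0.05, 1 and 0 by DESeq2), with a median of -0.02. Ddit4, an inhibitor of mTORC1, fell from 88.54 ± 9.57 to 58.01 ± 2.96 CPM (SD), or -0.61 ± 0.08 (SE) as log2 fold change (edgeR adjusted p = 0.00137). The receptor gene Nr3c1 had -0.18 ± 0.06 (SE, edgeR adjusted p = 0.0934). None of the 7 tested relatives of Tsc22d3 and genes of the associated WNK kinase pathway was called by edgeR or DESeq2, and 0 had an unadjusted p under 0.05 (median 0.02).

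Vsir (ENSMUSG00000020101.14, chromosome 10, 60346851 to 60372684) encodes VISTA, an inhibitory receptor present on resting naive CD4 T cells. It measured 443.7 and 453.2 CPM in control 1 and 2, against 399.4, 363.9, 378.9 and 423.1 CPM in the libraries Cmtr1 cKO 1 to 4. The groups did not overlap, but the log2 fold change of -0.20 ± 0.08 (SE) missed the threshold (edgeR adjusted p = 0.119). Without Cmtr1 cKO 4 it was -0.24 ± 0.06 (SE) and passed (edgeR adjusted p = 0.011). With the non-exonic share (the covariate fit described below) Vsir had -0.08 (adjusted p = 0.582), and on library totals -0.07 (adjusted p = 0.577). Of 11 tested VISTA ligands and other inhibitory receptors 0 were called by edgeR or DESeq2, 0 higher and 2 lower at an unadjusted p under 0.05, with a median of -0.04. Selplg, the gene of PSGL-1, a VISTA ligand, had -0.18 ± 0.08 (SE, edgeR adjusted p = 0.148).

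**Figure D2:**
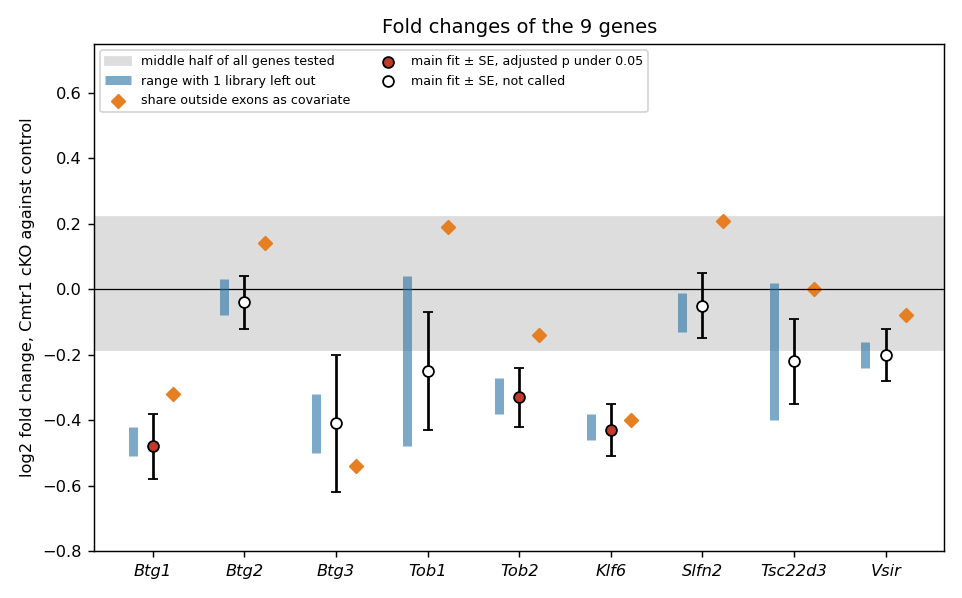
Log2 fold change of each gene, Cmtr1 cKO against control (vertical axis), from the fit to all 6 libraries (circles with SE, red where the adjusted p was under 0.05), its range with 1 library left out (blue bars) and its value with the non-exonic share as a covariate (orange diamonds); the grey band holds the middle of all genes tested, from the lower to the upper quartile. Btg1, Tob2 and Klf6 stay below 0 in all of these fits, as do Btg3 and Vsir, which were not called. Btg2, Tob1 and Slfn2 are above 0 with the covariate.

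The 3 calls differed in how they held. Leaving out control 1 or control 2 ended all of them, with adjusted p of 0.119 and 0.136 for Btg1, 0.15 and 0.313 for Tob2, and 0.062 and 0.121 for Klf6. The members called then numbered 0 (4 and 3 lower and 0 higher at an unadjusted p under 0.05), although Btg1 kept -0.46 and -0.48, Tob2 -0.38 and -0.27, and Klf6 -0.45 and -0.38. A fit with 1 control library assumes that it varies as the Cmtr1 cKO libraries do. Tob2 also lost its call without Cmtr1 cKO 1, 2 or 3 (adjusted p = 0.0932, 0.0991 and 0.0756), whereas Btg1 and Klf6 remained called. Tob2 was the only one of the 3 not called by DESeq2 (adjusted p = 0.0543), on library totals (0.11) or on unstranded counts (0.0527). Calls over all genes moved too, from 1457 of 12748 in the fit to all 6 libraries. Without Cmtr1 cKO 1, 2, 3 and 4 they were 744 of 12645, 663 of 12629, 606 of 12688 and 3880 of 12603. They were fewest without a control. Counts with 1 library left out, for these genes and the lists below, move with these totals and do not describe the lists alone.

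With the non-exonic share as a covariate, Klf6 had -0.40 ± 0.09 (SE) and remained called (edgeR adjusted p = 0.00944). Btg1 had -0.32 ± 0.10 (SE, adjusted p = 0.0587) and Tob2 -0.14 ± 0.10 (SE, adjusted p = 0.504), so that 1 of the 9 genes was called in that fit. Over all genes tested the covariate fit called 666 of 12748, against 1457 without the covariate, so fewer calls were not particular to these genes. Cmtr1 cKO 4 had a share of 38.02%, close to the 37.23% of control 1. In that library, log2 CPM relative to the control mean was -0.46 for Klf6, -0.38 for Btg1 and -0.22 for Tob2. In Cmtr1 cKO 1, with the highest share, the values were -0.45, -0.53 and -0.40. The same library 4 had 0.09 for Btg2, 0.18 for Slfn2, 0.03 for Tob1 and -0.01 for Tsc22d3, where Cmtr1 cKO 1 had -0.14, -0.17, -0.48 and -0.33.

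**Figure D3:**
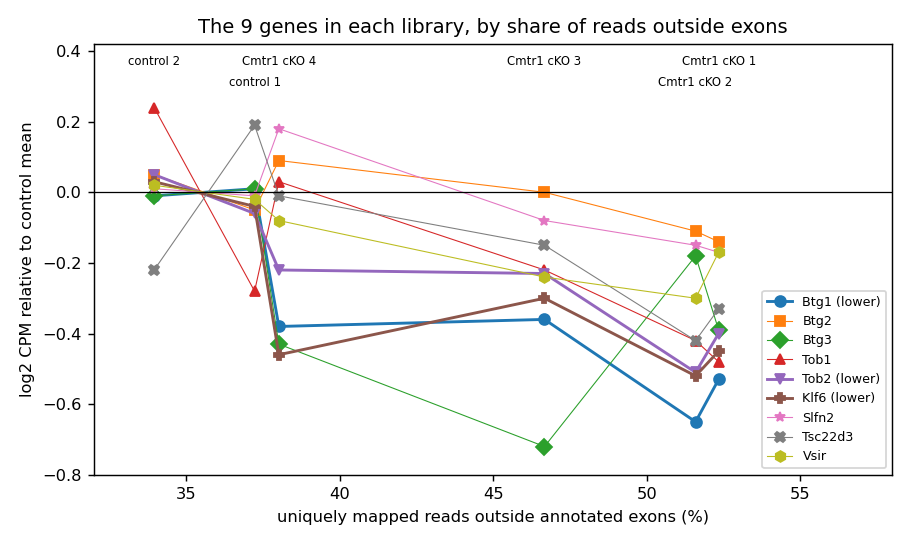
Log2 CPM of each gene relative to its control mean (vertical axis) against the non-exonic share (horizontal axis). The share is the percentage of uniquely mapped reads in no annotated exon on the counted strand. Each column of points is 1 of the 6 libraries, named at the top, and lines only join the points of a gene. At a share near that of control 1, Cmtr1 cKO 4 has Klf6 at -0.46 and Btg1 at -0.38, and Slfn2 at 0.18.

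Levels were ordered per kilobase of exon. In the controls Btg1 and Slfn2 led with 200.3 ± 2.21 and 200.2 ± 2.31 CPM per kb (SD, n = 2) and overlapped each other. Vsir followed with 89.45 ± 1.34, Btg2 with 81.9 ± 4.2, Tsc22d3 with 39.16 ± 7.99 and Klf6 with 28.26 ± 0.971 CPM per kb, and each was separate from its neighbours. Tob2 (9.796 ± 0.532), Tob1 (7.714 ± 1.94) and Btg3 (1.387 ± 0.0106 CPM per kb) came last, also separate. In Cmtr1 cKO, Slfn2 at 193.8 ± 22.1 CPM per kb (SD, n = 4) stood apart from Btg1 at 143.9 ± 13.2. Btg2 (79.83 ± 5.77) and Vsir (78.05 ± 5.13) overlapped there, as did Tob2 (7.769 ± 0.735) and Tob1 (6.449 ± 1.07 CPM per kb). With the length of the longest transcript in place of all exons, Tob2 in Cmtr1 cKO had 12.47 ± 1.18 CPM per kb and was separate from Tob1 (6.449), and Vsir (80.75) lay above Btg2 (79.83), still overlapping it.

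**Figure D4:**
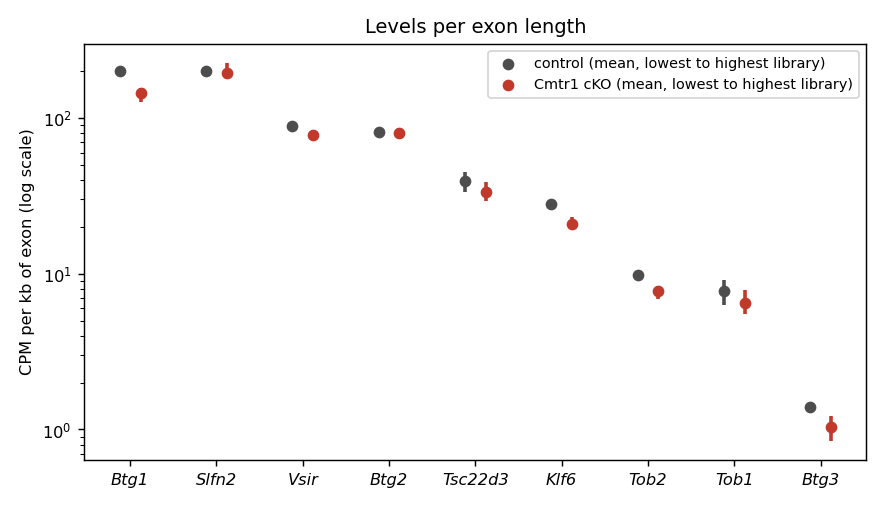
Levels of the 9 genes in CPM per kilobase of exon (vertical log axis) in control (grey) and Cmtr1 cKO (red) libraries, with points at the mean and lines from the lowest to the highest library. Btg1 and Slfn2 share the top place in the controls, at 200.3 and 200.2 CPM per kb, and separate in Cmtr1 cKO, at 143.9 and 193.8.

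The genes whose log2 CPM, centred on its mean, lay closest to that of Btg1 over the 6 libraries were Adk, Hspe1 and Zc3h12d, with root mean square differences of 0.024, 0.0271 and 0.0371 and log2 fold changes of -0.51, -0.46 and -0.46. For Klf6 they were Tiparp, Kctd10 and Fbln1 (0.0378, 0.0393 and 0.0407), with log2 fold changes of -0.39, -0.36 and -0.53. These genes were picked for their likeness in the same libraries, and no test applies.

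Partners through which BTG and TOB proteins act were counted next. Of 18 tested genes of the CCR4-NOT complex, the PAN2-PAN3 and PARN deadenylases and poly(A)-binding proteins, 1 was higher and 2 were lower by edgeR (5 and 4 at an unadjusted p under 0.05, 3 and 1 by DESeq2), with a median log2 fold change of 0.06. Cnot7 and Cnot8, the catalytic subunits that bind BTG and TOB proteins, had 0.03 ± 0.10 and -0.14 ± 0.08 (SE, edgeR adjusted p = 0.875 and 0.243). Pabpc1, the main cytoplasmic poly(A)-binding protein and itself an mRNA with a terminal pyrimidine tract, fell from 902.6 ± 54.7 to 578.1 ± 107 CPM (SD), with -0.64 ± 0.14 on the log2 scale (SE, edgeR adjusted p = 0.0165). Pan2 rose from 44.65 ± 2.02 to 66.81 ± 8.99 CPM (SD), by 0.58 ± 0.12 (SE, edgeR adjusted p = 0.0121), and Tnks1bp1, a CCR4-NOT associated protein, had -0.34. With the non-exonic share as a covariate none of these 3 was called (Pabpc1 -0.21, Pan2 0.22, adjusted p = 0.0803 and 0.195; Tnks1bp1 -0.33, adjusted p = 0.138), nor were they without control 1 or control 2. Tnks1bp1 was also not called by DESeq2 (adjusted p = 0.0701), on library totals (-0.21, 0.13) or without Cmtr1 cKO 1, 2 or 3 (0.06, 0.0718 and 0.0965), and it passed in 6 of 14 alternative fits against 11 for Pabpc1 and 11 for Pan2. Leaving out control 1, control 2 and Cmtr1 cKO 1 to 4 in turn gave 0, 0, 1, 1, 1 and 6 higher and 0, 0, 1, 1, 1 and 4 lower.

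Other regulators of quiescence moved in both directions. Of 24 tested genes 5 were lower and 2 higher by edgeR (7 and 5 at an unadjusted p under 0.05, 5 and 4 by DESeq2), with a median of -0.04. The 5 that fell were Cblb, a ubiquitin ligase that dampens T cell receptor signals (-0.39 ± 0.07, SE), Txnip, an inhibitor of glucose uptake (-0.39), Foxo1, a transcription factor of naive T cells (-0.35), Pik3ip1, an inhibitor of PI3K (-0.33), and Cdkn1b, the CDK inhibitor p27 (-0.30). Cblb went from 158 ± 1.77 to 120.4 ± 5.57 CPM (SD, edgeR adjusted p = 0.00565). The 2 that rose were Runx1 (0.42 ± 0.12, SE, edgeR adjusted p = 0.047) and Tsc1, an inhibitor of mTORC1 (0.33). With 1 library left out, in the order control 1, control 2, Cmtr1 cKO 1 to 4, the list had 0, 0, 4, 4, 2 and 8 genes lower and 0, 0, 0, 0, 1 and 5 higher. With the covariate 2 were lower and 0 higher, and Runx1 had 0.04 (adjusted p = 0.844).

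Genes of cell cycle entry and growth rose in part. Of 27 tested, 5 were higher and 2 lower by edgeR (12 and 2 at an unadjusted p under 0.05, 4 and 1 by DESeq2), with a median of 0.20. Cdk6, the kinase that drives G1, rose from 36.07 ± 0.0564 to 83.04 ± 5.34 CPM (SD), by 1.20 ± 0.09 (SE, edgeR adjusted p = 3.2e-05). The proliferation marker Mki67 rose by 1.13 on the log2 scale and the topoisomerase gene Top2a by 0.89, and at low levels Birc5 rose by 1.67 and the cyclin gene Ccna2 by 1.05. The amino acid transporter gene Slc7a5 fell by 0.57 and the glucose transporter gene Slc2a1 fell by 0.37. Leaving out 1 library in the same order gave 3, 3, 3, 3, 4 and 8 higher and 0, 0, 1, 1, 1 and 4 lower. Ccna2 was not called by DESeq2 (1.06, adjusted p = 0.127), with the covariate (0.91, adjusted p = 0.265) or without any of the libraries other than Cmtr1 cKO 4, and Slc2a1 not by DESeq2 (-0.37, adjusted p = 0.0583), on library totals (-0.24, adjusted p = 0.103) or under the same omissions. Birc5 was not called by DESeq2 (1.70, adjusted p = 0.0547), with the covariate (1.37, adjusted p = 0.205), or without control 1 or 2 or Cmtr1 cKO 1 or 2. The folds of Ccna2 and Birc5 in the DESeq2 and covariate fits were within 1 SE of those above.

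The p53 response, of which Btg2 is a target, was higher for 6 of 18 tested genes and lower for 0 by edgeR (9 and 1 at an unadjusted p under 0.05, 5 and 0 by DESeq2), with a median of 0.23. Phlda3, an inhibitor of AKT, rose from 0.4128 ± 0.0344 to 5.045 ± 0.436 CPM (SD), and Psrc1, a spindle protein, from 0.5196 ± 0.364 to 6.039 ± 0.623 CPM (SD), while Btg2 itself had a log2 fold change of -0.04. Omitting single libraries in the same order gave 3, 2, 4, 6, 3 and 9 higher genes. With the covariate, 3 of the 6 calls ended, those of Aen (0.73 to 0.32, adjusted p = 0.0847), Bbc3 (0.58 to 0.61, adjusted p = 0.0587) and Plk2 (1.39 to 1.15, adjusted p = 0.284). Of 17 tested immediate early genes, which T cells induce on stimulation and handling, 2 were higher and 0 lower by edgeR (2 and 3 at an unadjusted p under 0.05, 2 and 0 by DESeq2), with a median of 0.12. They were Fos (0.89 ± 0.23, SE, edgeR adjusted p = 0.0337) and Nr4a1 (0.60 ± 0.11, SE, edgeR adjusted p = 0.00803). Fos was not called with the covariate (0.32, adjusted p = 0.518) or without any of the libraries other than Cmtr1 cKO 4, nor Nr4a1 without control 1 (0.48, adjusted p = 0.114). Interferon-stimulated genes, 20 tested, gave 6 higher and 1 lower call by edgeR (11 and 1 at an unadjusted p under 0.05, 8 and 1 by DESeq2), with a median of 0.40, led by Mx1 (1.40 ± 0.36) and Mx2 (1.14 ± 0.27, SE). In the same order of omissions 11, 1, 2, 2, 6 and 5 of them were higher, and Mx1 had 2.44 without control 1 and 0.84 without control 2 (adjusted p = 0.0137 and 0.17). In the covariate fit Mx1 had 1.21 ± 0.69 and Mx2 1.17 ± 0.52 (SE), folds close to those above with larger errors, and neither was called (adjusted p = 0.481 and 0.345).

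**Figure D5:**
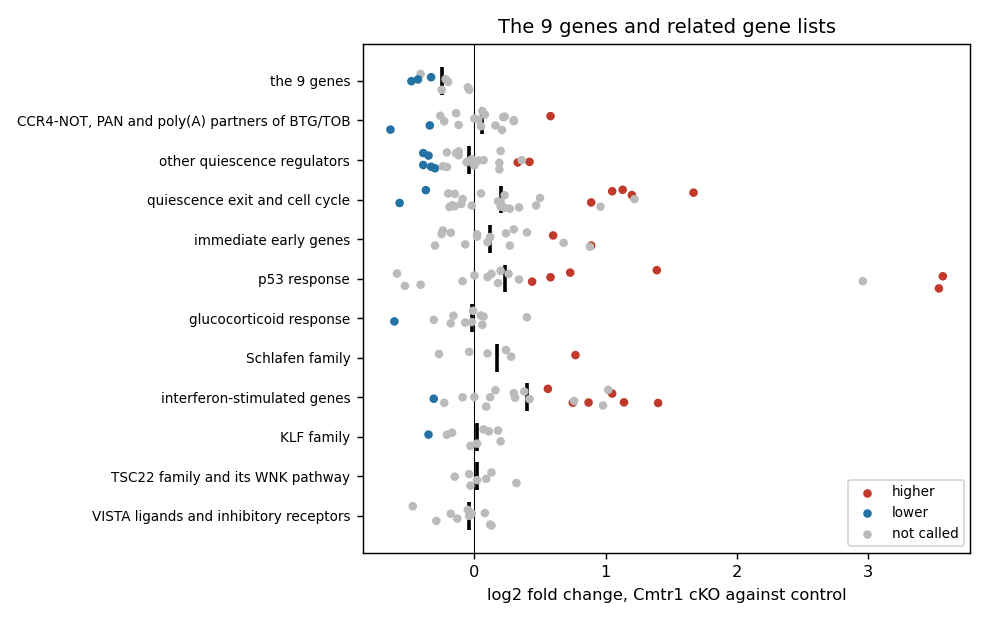
Log2 fold changes, Cmtr1 cKO against control (horizontal axis), of the tested genes of each list (rows; vertical scatter has no meaning), coloured by the call, with a black bar at the median of the list. The 9 genes have a median of -0.25 with 3 lower calls, against medians of 0.06 for the deadenylation partners and -0.04 for other quiescence regulators.

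Markers of naive CD4 T cells other than Ccr7 and Thy1 did not pass by edgeR. Of 7 tested naive T cell markers 0 were higher and 1 lower (1 and 2 at an unadjusted p under 0.05, 1 and 1 by DESeq2). Of 8 tested CD4 T cell markers 0 were higher and 1 lower (0 and 2 at an unadjusted p under 0.05, 0 and 1 by DESeq2). The naive marker Lef1 had 0.19 ± 0.08 (SE, edgeR adjusted p = 0.149). Ccr7, the lymph node homing receptor, had 464.1 ± 3.95 and 361.2 ± 45.4 CPM (SD, -0.36, edgeR adjusted p = 0.0433), and Thy1 had 422 ± 15.7 and 291.1 ± 14.1 CPM (SD, -0.54, edgeR adjusted p = 0.0013). Of 5 tested effector and memory markers 0 were higher and 2 lower by edgeR (1 and 2 at an unadjusted p under 0.05, 0 and 2 by DESeq2). Prf1 and Cd44 fell, by 1.95 and by 0.50 on the log2 scale. Id2 went the other way, with 0.31 ± 0.11 (SE, edgeR adjusted p = 0.0783). Ccl5 (-0.59) and Il2rb (-0.20) were not called. The calls of Thy1 and Prf1 held in every fit listed in the closing section, whereas Ccr7 was not called with the covariate (-0.10, adjusted p = 0.525), on library totals (-0.24, adjusted p = 0.106) or without any of the libraries other than Cmtr1 cKO 4, and Cd44 not without control 1 or 2.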

How the data were processed

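The 6 deposited files hold whole-number read counts per gene, not normalized, with 1 unstranded and 2 stranded columns. Per the submitters' processing notes, STAR 2.5.2b and edgeR were used with mm10 and GRCm38. No source used here names the counting annotation. Counts came from the column for the sense strand (5.57 to 22.7 times the other stranded column), and rows that name no gene (52.1% to 62% of reads) were left out. Identifiers matched GENCODE vM21 for 98.9% of genes.

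With edgeR 4.0.16 (R 4.3.3), low genes were removed by filterByExpr at its defaults, and the rest were scaled by TMM and tested for genotype alone with the quasi-likelihood test, Benjamini-Hochberg adjusted over all genes. The SE is the log2 fold change divided by the square root of F. The test was checked on simulated data, with independent libraries and the same spread setting for every gene. That check does not cover differences between libraries that many genes share. The members, gene lists and promoter motifs were chosen with earlier results of these data known. Named genes were all members, the 2 largest called changes of each list with a mean of at least 1 CPM, set partners, Cmtr1, and the 3 genes most alike Btg1 and Klf6. Other genes named from the lists, among them Klf2, Slfn1, Nr3c1 and Selplg, were named after their values were seen. Every replicate pair differed beyond sampling noise, and each library counted as 1 sample. Chi-square over degrees of freedom went from 1.87 to 18.5, the highest between Cmtr1 cKO 1 and Cmtr1 cKO 4. Confidence intervals are 95% Wilson intervals and cover counting error only. Promoter and start sequences come from RefSeq (GRCm38.p6). Alternatives were other scalings, DESeq2 1.42.0, no filter, unstranded counts, a covariate, a replicate block, each library left out, and the longest transcript as length.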

Additional observations from a re-analysis of the deposited data

Results flagged for a closer look

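Within the 4 Cmtr1 cKO libraries, Slfn1, a Schlafen relative of Slfn2, had 401.5 CPM in Cmtr1 cKO 4 against 313.6, 315.7 and 321.2 CPM in the other 3. The gap to the nearest library was 0.914 of the range of the group. Slfn1 had 279.7 and 278.3 CPM in the controls and differed by 0.28 ± 0.10 (SE) on the log2 scale (edgeR adjusted p = 0.0975). Without Cmtr1 cKO 4 the difference was smaller, 0.18 ± 0.06 (SE), and passed the test (adjusted p = 0.0291). It also passed with the non-exonic share as a covariate (0.55, adjusted p = 1.98e-05) and on library totals (0.40, adjusted p = 0.0223). It was the only one of 64 measures examined in this way that stood out, and chance alone flags about 1 in 20. Cmtr1 cKO 4 was also the highest Cmtr1 cKO library for Slfn2, with 376.2 CPM.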

How the results depend on the processing

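Of all genes tested 1457 were called, against 2272 with no filter, 666 with the non-exonic share as a covariate and 193 to 3880 with 1 library left out. Of the 9 genes 3 were called, 1 with the covariate and 0 to 4 with 1 library left out. In these fits 0 were called higher, and with the covariate 2 had an unadjusted p under 0.05 in that direction. Of 164 tested genes of the related lists 35 were called (23 higher, 12 lower), 8 to 67 with 1 library left out. On library totals alone the median of all genes moved to 0.127, and the split became 41 higher and 5 lower. Btg2 (0.09), Slfn2 (0.08) and Klf2 (0.10) turned positive. With the covariate Btg2 (0.14), Tob1 (0.19), Slfn2 (0.21), Tsc22d3 (0.00), Klf2 (0.33), Pan3 (0.00), Cnot7 (-0.20) and Cmtr1 (-0.65) changed sign, none of them called. Without control 2 so did Btg2 (0.03), Tob1 (0.04), Klf2 (0.13) and Cnot7 (-0.07), without control 1 Tsc22d3 (0.02), and without Cmtr1 cKO 1 or 2 Klf2 (0.02 and 0.04), and without Cmtr1 cKO 2 Cnot7 (-0.02). With 1 library left out the lowest or highest values at the other end were -0.08 for Btg2, -0.48 for Tob1, -0.40 for Tsc22d3, 0.16 for Cnot7 and -0.15 for Klf2. The cause of these changes was not tested. The share of reads outside exons differed by 11.6 percentage points between groups, 9.83 to 14.6 with 1 library left out. With the longest transcript as length, 8 rather than 7 of 8 neighbouring levels in the controls were separate. With a replicate block the labels' numbers 1 and 2 were shared by both groups, but the deviations of same-numbered libraries correlated at 0.125 and -0.131, and nothing in the labels ties them. That fit called 4842 genes, 7 of the 9 (all lower, without Btg2 and Btg3) and 88 list genes.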

Other observations

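Reads on the strand opposite to Btg1 were counted at its exons in every library, where GENCODE vM21 has no gene on that strand. They numbered 160 in each control and 76, 74, 67 and 71 in Cmtr1 cKO 1 to 4. Of the reads on both strands they made up 1.30% in control 1 (95% Wilson bounds 1.11% and 1.51%) and 1.46% in control 2 (1.25% and 1.70%). The shares for Cmtr1 cKO 1 to 4 were 0.954% (bounds 0.763% and 1.19%), 0.986% (0.787% and 1.24%), 0.856% (0.674% and 1.09%) and 0.748% (0.593% and 0.942%). The groups did not overlap, with an exact two-sided permutation p of 0.0667, the smallest the design allows. The same test was run for each of the 9 genes, and this p is not adjusted for that. For the other 8 it gave p of 0.267 or more. Over all genes the opposite strand held 4.22% to 15.2% of counts, the highest in Cmtr1 cKO 3. The other 8 genes had at most 12 such reads in a library. As a share, Btg3 was above Btg1 in 5 of 6 libraries on few reads, with up to 8.57% (Cmtr1 cKO 3, 3 of 35 reads, bounds 2.96% and 22.4%) and 0 of 48 reads in Cmtr1 cKO 4.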
